A study of Danio rerio with 34 samples.

Results

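The structure of messenger RNA 5′ ends was measured in zebrafish embryos from the fertilized egg to gastrulation by icSHAPE, as the reactivity of nucleotides 1 to 100 of each transcript, and was compared with the 200 nt that follow, the adjacent region, of the same molecules. A 5′ end was included in a profile when its RefSeq transcript (an NM_ entry) was at least 1000 nt long and had a reactivity value at more than 50% of its nucleotides in that profile. By this rule 6394 transcripts entered in at least 1 of the 8 profiles, 1904 entered in every wild-type profile and 1612 in all 8. The number per wild-type profile was 3360 of 6684 listed transcripts at 0 h.p.f. (fertilized egg), 3778 of 7446 at 0.4 h.p.f. (1-cell), 3804 of 7742 at 1 h.p.f. (4-cell), 4634 of 7830 at 2 h.p.f. (64-cell), 5690 of 7937 at 4 h.p.f. (sphere) and 3441 of 6996 at 6 h.p.f. (shield). The elavl1a morphant profiles held 3339 of 6912 transcripts at the sphere stage and 2788 of 4303 at the shield stage.

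In eukaryotic mRNA the 5′ end carries the cap, which the eIF4F complex binds through eIF4E, while its helicase eIF4A unwinds the leader so that the small ribosomal subunit can load and scan to the start codon. Stable folding close to the cap is known to hinder that loading, and the early embryo depends on translation of stored maternal mRNAs until its own genome is transcribed. In icSHAPE the compound NAI-N3 enters living cells and modifies the 2′-hydroxyl of flexible nucleotides, and the modification stops reverse transcription. A reactivity near 0 is read as a constrained nucleotide, paired or covered, and a reactivity near 1 as a flexible one.

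The embryos were of the AB strain, and each profile combined libraries from NAI-N3-treated and DMSO-treated embryos of 1 stage. Morphants had been injected at the one-cell stage with a morpholino against the start codon of elavl1a, which blocks translation of the RNA-binding protein Elavl1a and leaves its gene intact. Separate RNA-seq libraries, 2 per group, came from control embryos at 2, 4 and 6 h.p.f. and from morphants at 4 and 6 h.p.f. The replicates of an icSHAPE stage had been merged before deposit, so a stage is represented by 1 value per nucleotide with no measure of its error. Transcripts of 1 profile share their libraries and are not replicates of a stage, and the tests here therefore run over the 6 wild-type profiles, which in turn share transcripts, sequences and pipeline. Reactivity had been scaled in sliding windows of 200 nt stepped by 30 nt, so the first 30 nt of a transcript lie in a single window, unlike most later positions. Transcript positions count from the first nucleotide of the RefSeq entry, and the files hold no start codons, so nucleotides 1 to 100 contain 5′ UTR and coding sequence in unknown shares.

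Reactivity was highest at the outermost measured nucleotides and declined with distance from the end, most steeply over the first 50 nt. At 0.4 h.p.f. the mean over all valued nucleotides was 0.743 in the first bin of 10 nt, 0.638 in nucleotides 11 to 20, 0.533 in 21 to 30, 0.464 in 31 to 40 and 0.418 in 41 to 50, against 0.332 in the adjacent region. The shape recurred at lower levels at the other stages. Nucleotides 7 to 30 averaged 0.442 against 0.289 in the adjacent region at 0 h.p.f., 0.590 against 0.332 at the 1-cell stage and 0.384 against 0.278 at the 4-cell stage. In the later wild-type profiles these segments averaged 0.350 against 0.243 at 2 h.p.f., 0.480 against 0.294 at the sphere stage and 0.516 against 0.298 at the shield stage. Between nucleotides 51 and 100 the remaining difference was at most 0.0353, at the 1-cell stage. At 1 h.p.f. it was -0.00657, so that this inner segment of the 5′ end lay slightly below the adjacent region at that stage. A bin mean first came within 0.02 of the adjacent level in the bin starting at nucleotide 41 at 1 h.p.f., at 51 at 2 h.p.f., at 71 in both sphere and shield embryos, while it took until the bin at 91 at 0 and 0.4 h.p.f.

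**Figure D1:**
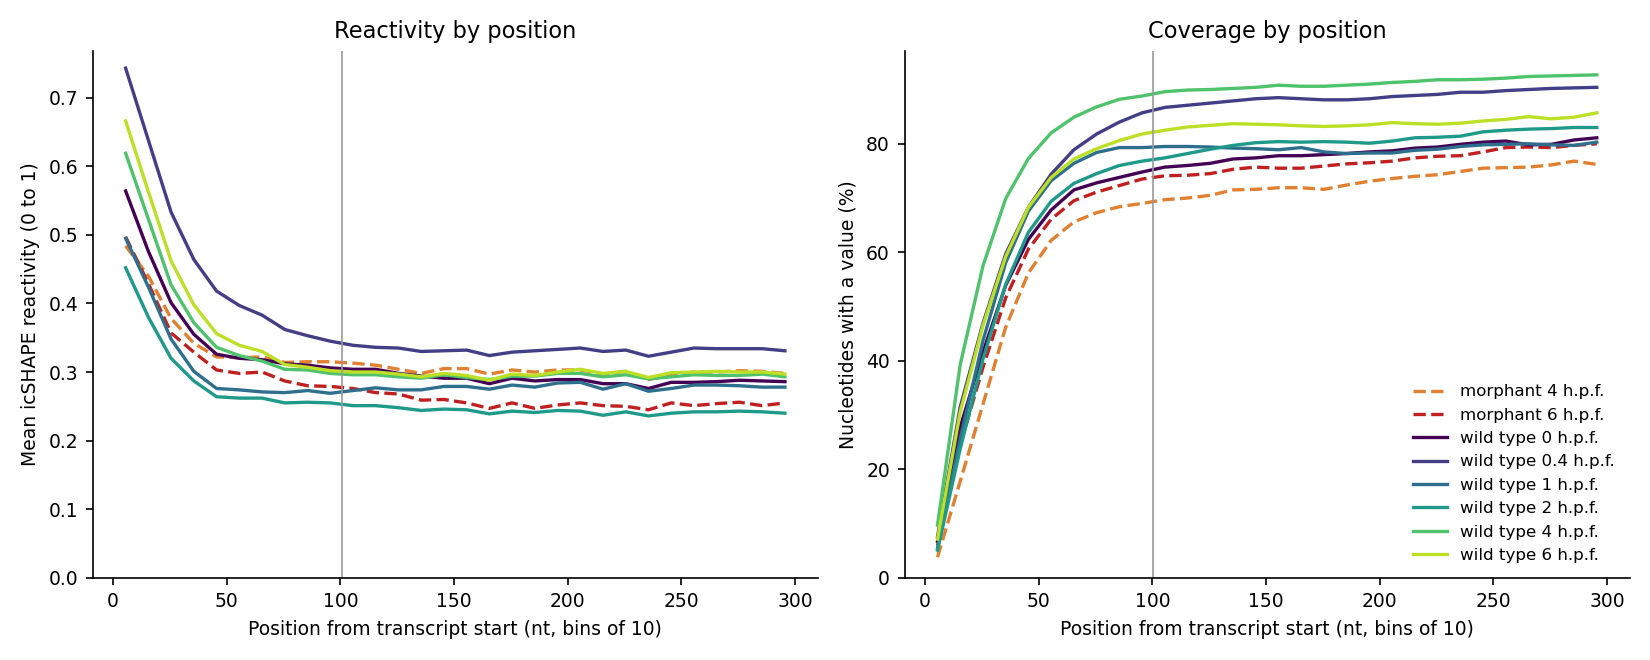
Mean icSHAPE reactivity (left) and percentage of nucleotides with a value (right) in bins of 10 nt along the first 300 nt, 1 line per profile, dashed for morphants. The lines fall steeply over the first 50 nt, from 0.743 in the first bin at the 1-cell stage and 0.452 at the 64-cell stage, where between 3.80% and 9.72% of nucleotides had a value, and are nearly flat after the grey line at nucleotide 100.

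Few of the outermost nucleotides were measured. No profile had a value in nucleotides 1 to 6 of any transcript, and at nucleotide 7 between 8.27% and 20.9% of transcripts had one. The first bin was valued at 6.75% of its nucleotides in the fertilized egg and 9.72% at the sphere stage, and nucleotides 41 to 50 at 62.4% and 77.3%. A decline was also present in a fixed set of transcripts, those with at least 90 of the first 100 nt valued. This set held 705 transcripts in the fertilized egg and 1693 at the sphere stage. Its nucleotides 11 to 20 averaged 0.473 and 0.524, and its nucleotides 41 to 50 averaged 0.319 and 0.336. Over all transcripts valued there, the means were 0.476 and 0.523, then 0.326 and 0.336. The fixed set supplied many of the values in the outer bins of all transcripts, so these means are not independent.

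Whether the rise belonged to the transcript end or to the edge of any measured stretch was examined by counting positions from the first valued nucleotide. At 4 h.p.f., 2740 transcripts whose first value lay at nucleotides 7 to 20 started at 0.533 over their first 10 nt and came down to 0.323 after 40 nt. The 366 transcripts whose values began in the adjacent region started at 0.373 and came down to 0.286, the 88 transcripts whose values began beyond the first 300 nt started at 0.352 and came down to 0.255, and 5138 stretches inside transcripts that resumed after 30 unvalued nucleotides started at 0.303 and came down to 0.274. The same order held at 0.4 h.p.f., with 0.649 for starts at nucleotides 7 to 20, 0.414 for starts in the adjacent region and 0.373 for interior stretches. Reactivity thus came down from each kind of edge shown, by most from transcript starts. The part of the edge in the higher values at transcript starts was not tested beyond these values.

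**Figure D2:**
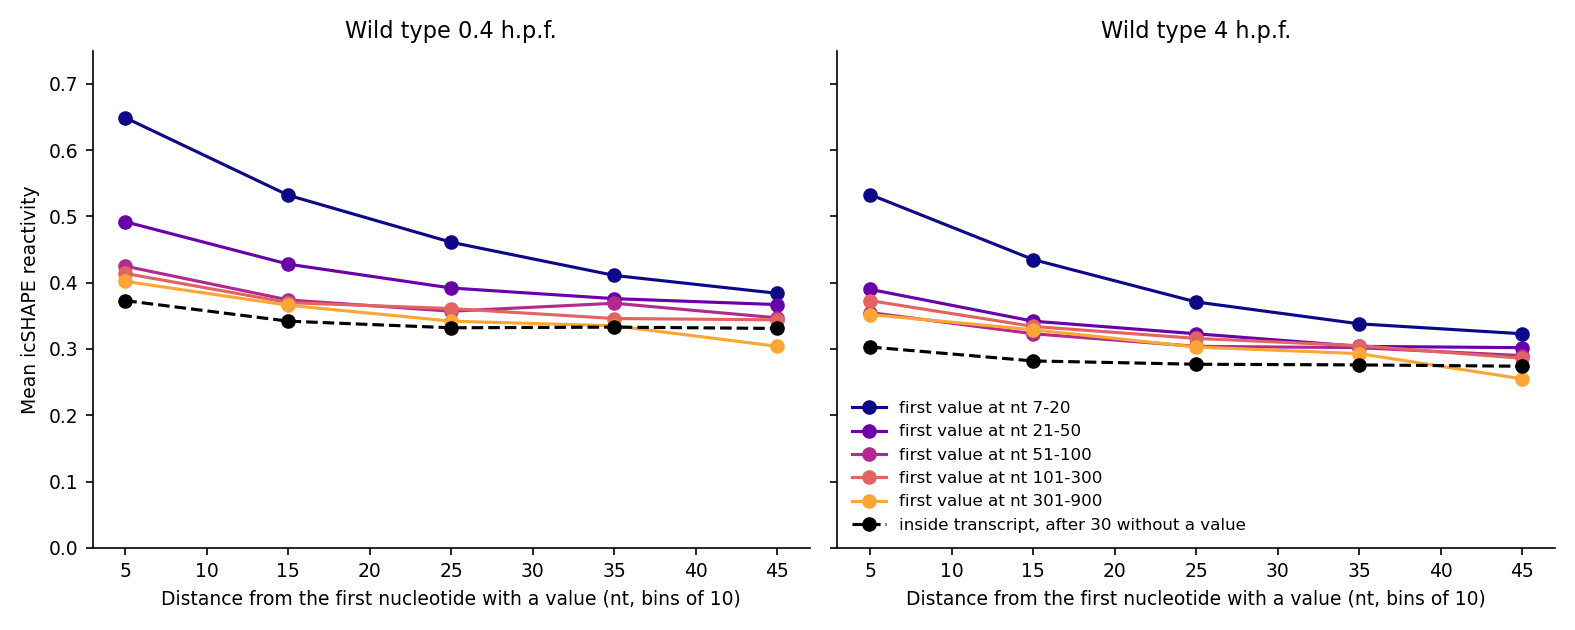
Mean icSHAPE reactivity against distance from the first nucleotide with a value, in bins of 10 nt, for transcripts grouped by where that nucleotide lies and, dashed, for stretches inside transcripts that follow 30 nt without values, at 0.4 h.p.f. (left) and 4 h.p.f. (right). Starts at nucleotides 7 to 20 begin at 0.649 and 0.533, above every other group, and interior stretches begin at 0.373 and 0.303.

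Taken as a whole, the 5′ end was more reactive than the adjacent region in each of the 8 profiles. Averaging required 30 or more values in each of the regions, which left 2409, 3036, 2905, 3403, 4899 and 2685 transcripts in the wild-type profiles in stage order, 2225 in morphants at 4 h.p.f. and 1954 in morphants at 6 h.p.f. Another 415 to 742 members per profile had no value at all in the 5′ end, and 313 to 489 had some values but fewer than 30 in one of the regions. The 5′ end averaged 0.333 against 0.288 in the adjacent region at 0 h.p.f., 0.409 against 0.332 at 0.4 h.p.f., 0.288 against 0.278 at 1 h.p.f., 0.271 against 0.243 at 2 h.p.f., 0.342 against 0.294 at 4 h.p.f. and 0.354 against 0.298 at the shield stage. The ratio of the means ran between 1.03 at the 4-cell stage and 1.23 at the 1-cell stage.

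Over the 6 wild-type profiles the mean was 0.333 ± 0.0495 in the 5′ end and 0.289 ± 0.0289 in the adjacent region (SD, n = 6 profiles), a difference of 0.0441 ± 0.0235 that was positive in 6 of 6 profiles. An exact two-sided sign-flip permutation test over the profiles gave p = 0.0312, the smallest that 6 profiles allow, and 0.0417 after Benjamini-Hochberg adjustment over the 4 measures of reactivity tested. The size of the difference and its p depended in part on the outer nucleotides. With the 5′ end taken as nucleotides 31 to 100 the difference was 0.0267 and the exact permutation p 0.0625. With nucleotides 51 to 100, a choice made after seeing the data, they were 0.0171 and 0.0625, since 1 h.p.f. then turned negative.

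**Figure D3:**
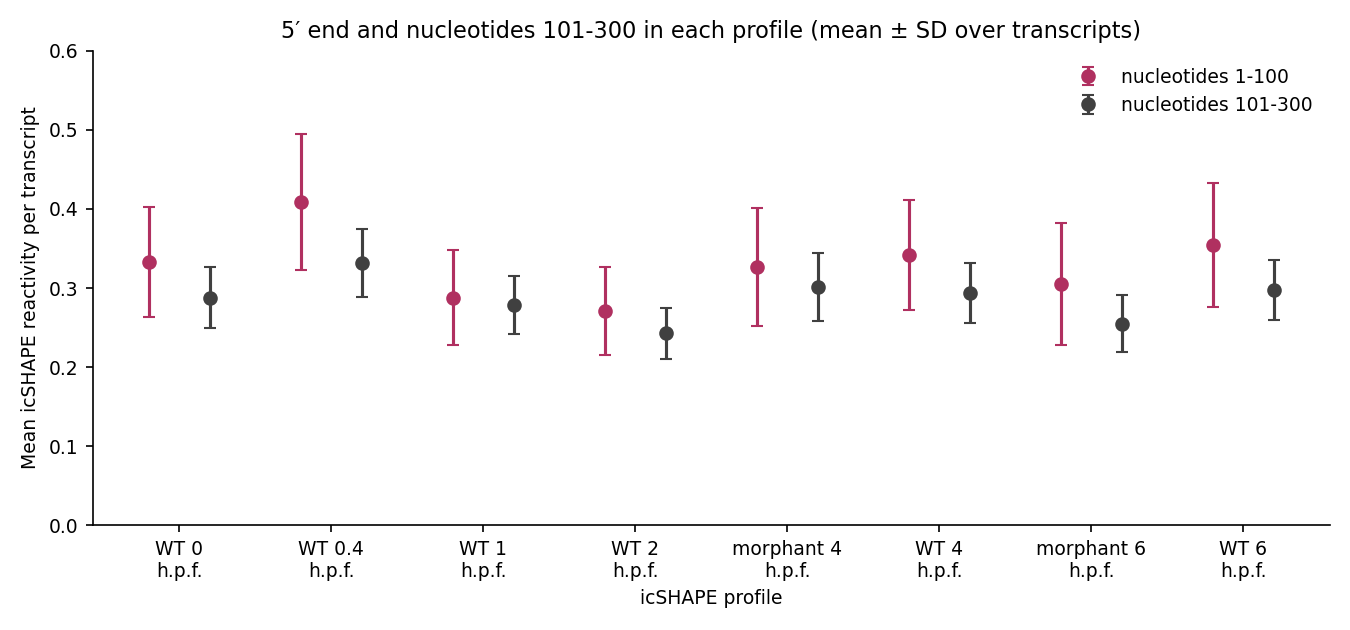
Mean icSHAPE reactivity of nucleotides 1 to 100 (red) and the adjacent region (grey) of the same transcripts in each profile. Error bars are the SD over transcripts within the profile, not over replicates, and the red point lies above the grey one in each of the 8 profiles, most narrowly at 1 h.p.f. (0.288 and 0.278).

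Other measures of the reactivity distribution moved with the mean. Strongly reactive nucleotides, at 0.5 or more, made up 25.9 ± 5.18% of valued nucleotides in the 5′ end and 20.2 ± 2.35% in the adjacent region (SD, n = 6 profiles, exact permutation p = 0.0312, adjusted 0.0417), with the widest gap at 0.4 h.p.f., 34.3% against 24.0%. Reactivity was also more spread within the window, with a within-window SD of 0.296 ± 0.00575 in the 5′ end and 0.275 ± 0.00451 in the adjacent region (SD, n = 6 profiles, exact permutation p = 0.0312, adjusted 0.0417). That SD covers the whole window, so it includes the decline along the 5′ end and does not measure contrast between neighbouring nucleotides. With the 5′ end as nucleotides 31 to 100 the difference in SD was 0.00849 (exact permutation p = 0.0625). Nucleotides at exactly 0 were about as frequent in both regions, 10.9 ± 4.28% in the 5′ end and 11.4 ± 3.97% in the adjacent region (SD, n = 6 profiles), lower in the 5′ end in 5 of 6 profiles with an exact permutation p of 0.125.

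Coverage went the other way. Over all members, 60.1 ± 4.86% of nucleotides in the 5′ end and 83.8 ± 5.22% in the adjacent region had a value (SD, n = 6 profiles), and the difference lay between -26.9 and -20.5 percentage points in the wild-type profiles. Membership requires values over most of the whole transcript, so the share valued is partly set by the rule and is given as a description. Members also differed in abundance, with a median of a deposited value read here as RPKM (reads scaled by transcript length and library size) between 41.7 and 62.6 per profile, and the difference in reactivity moved with it. With transcripts ordered by RPKM within a profile and cut into 5 equal classes, the lowest class had a 5′ end at 0.294 and the adjacent region at 0.277, and the highest class 0.367 and 0.296, as means of the 6 wild-type profiles. The mean number of valued nucleotides among the first 100 moved alongside, 59.5 in the lowest class and 86.8 in the highest, and the part of abundance or depth in the difference was not tested. Among transcripts at or above the median RPKM the difference over the 6 profiles was 0.0574 (exact permutation p = 0.0312). Transcript length went with a smaller spread, 0.0472 in the shortest class and 0.0395 in the longest.

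Transcripts differed widely among themselves in how their 5′ end compared with the next 200 nt. The SD over transcripts was 0.0561 to 0.0856 for the 5′ end and 0.0322 to 0.0431 for the adjacent region in the wild-type profiles. Means of the 5′ end rest on fewer nucleotides. Over all members at 0 h.p.f., 185809 were valued in the 5′ end and 528316 in the adjacent region. The part of this in the wider SD was not tested. The 5′ end was the more reactive region in 74.3% of transcripts at 0 h.p.f., 81.3% at 0.4 h.p.f., 55.7% at 1 h.p.f., 69.1% at 2 h.p.f., 77.1% at 4 h.p.f. and 77.6% at the shield stage. At 0.4 h.p.f. the middle 80% of transcripts, from the 10th to the 90th percentile, ran between -0.0357 and 0.190. Within a profile the 5′ end and the adjacent region were weakly related across transcripts, with Pearson's r between 0.170 and 0.368 in the wild-type profiles over transcripts that share their libraries. A transcript's 5′ level was related between stages to varying degrees. Across the 15 pairs of wild-type profiles r had a median of 0.523 for the 5′ end, with a range of 0.253 to 0.699, and of 0.655 for the adjacent region, with a range of 0.573 to 0.758, over 1393 to 3371 shared transcripts per pair. The smaller number of nucleotides in the 5′ end also enters its r, and that part was not tested.

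Among 1005 genes with at least 50 valued nucleotides in the 5′ end and 100 in the adjacent region in all 6 wild-type profiles, 1 transcript per gene, 88.1% had a positive mean difference and the median was 0.0610. Coverage and RPKM rose together with the difference, as given above, so the values of these well-covered genes do not stand for all transcripts. In 469 genes (46.7%) the 5′ end was higher at every stage, and in 23 (2.29%) it was lower at every stage. The 10 genes at each end of this ranking are described here by their values, without a test, because they were chosen on the difference itself.

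hmgb2a, which encodes a high mobility group box chromatin protein, had the largest mean difference, 0.215. Its 5′ end was at 0.482, 0.495, 0.482, 0.426, 0.561 and 0.501 from 0 to 6 h.p.f., against 0.294, 0.271, 0.280, 0.237, 0.305 and 0.267 in the adjacent region, so the regions did not overlap at any stage. Its first 20 nt averaged 0.853 over the 6 profiles and its level stepped down through 0.550, 0.426 and 0.382 to 0.354 in nucleotides 81 to 100. pabpc1a, the cytoplasmic poly(A)-binding protein that links the mRNA tail to the cap complex, was at 0.417, 0.502, 0.423, 0.371, 0.470 and 0.492 in the 5′ end against 0.255, 0.291, 0.260, 0.227, 0.285 and 0.298 in the adjacent region. Its 5′ end stood above by 0.144 to 0.212 at all 6 stages.

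The other 8 genes of this group had mean differences between 0.179 and 0.198. They were gkap1, elob (Elongin B), st3gal5 (the sialyltransferase that makes ganglioside GM3), manbal, ywhaqa (a 14-3-3 protein), the transcript NM_199778, vamp3 (a vesicle SNARE) and hnrnpa0b (a heterogeneous nuclear ribonucleoprotein), and each was higher in the 5′ end in 6 of 6 profiles. st3gal5 was at 0.500, 0.610, 0.481, 0.419 and 0.508 in the 5′ end through 4 h.p.f. against 0.269, 0.298, 0.274, 0.259 and 0.263 in the adjacent region, and at 6 h.p.f. its regions nearly met at 0.256 and 0.244. At 6 h.p.f. its outermost nucleotides had no value, since its first 20 nt were measured in 5 of the 6 profiles, at 0.862 to 0.999. manbal reached 0.727 against 0.293 at 0.4 h.p.f., the widest single gap among these 20 genes, with its first value no earlier than nucleotide 39.

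At the low end, the 5′ end of prpf4bb, a pre-mRNA splicing kinase, was at 0.297, 0.351, 0.275, 0.299, 0.245 and 0.30, against 0.439, 0.512, 0.392, 0.333, 0.400 and 0.420 in the adjacent region. Its adjacent region was above the mean of that region at each stage, and its 5′ end was below the mean of 5′ ends at 5 of 6 stages. zp3.1, an egg envelope glycoprotein gene, showed the other form: its 5′ end was at 0.136, 0.134, 0.127, 0.144, 0.140 and 0.117, against 0.230, 0.223, 0.232, 0.216, 0.234 and 0.220. The first 20 nt of zp3.1 averaged 0.0323, between 0.0154 and 0.0514 over the 6 profiles, the reverse of the general decline, and nucleotides 81 to 100 averaged 0.0523.

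rpl5a, a protein of the large ribosomal subunit, was likewise low at its start, with 0.147, 0.179, 0.149, 0.124, 0.142 and 0.211 in the 5′ end against 0.258, 0.292, 0.241, 0.239, 0.228 and 0.248 in the adjacent region. Its paralog rpl5b was lower in the 5′ end in 6 of 6 profiles too, with a mean difference of -0.0355. Both genes for subunit J of the initiation factor eIF3 were among the 10 lowest, eif3ja at -0.110 with the 5′ end lower in 6 of 6 profiles and eif3jb at -0.0801 with the 5′ end higher at 6 h.p.f. alone, 0.342 against 0.315. Paralogs of similar sequence can share reads, so such pairs are not independent. The remaining low genes, with mean differences of -0.0991 to -0.0749, were tle3b (a Groucho-type corepressor), smim19, zcchc10, ccng1 (cyclin G1) and tdp2b (a DNA repair phosphodiesterase).

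**Figure D4:**
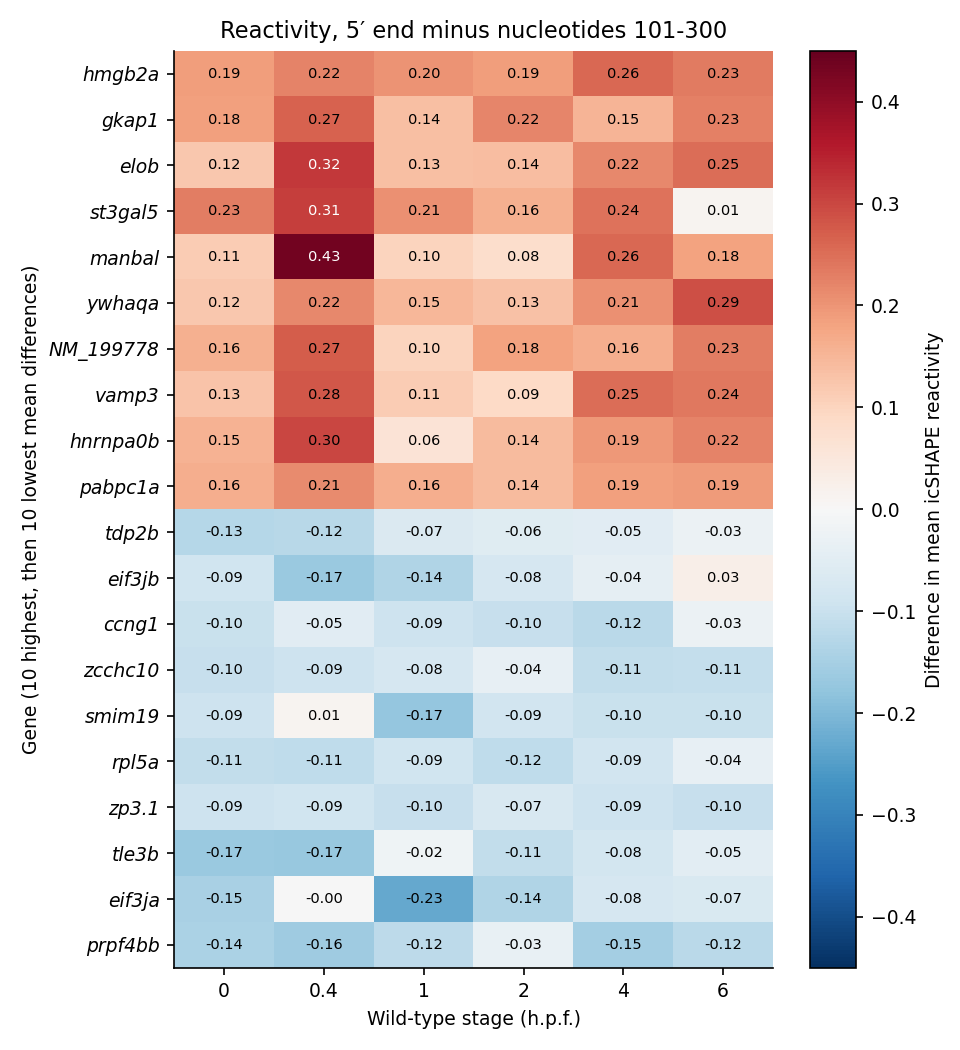
Reactivity of nucleotides 1 to 100 minus that of the adjacent region for the 10 genes with the highest and the 10 with the lowest mean difference, by wild-type stage, with each value printed in its cell. The columns are h.p.f., red cells mark a more reactive 5′ end, and the largest cell is manbal at 0.4 h.p.f. (0.727 against 0.293).

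Groups of genes were followed for their relation to the 5′ end or to the maternal and zygotic programmes, and each is set beside the 1005 genes, with their median difference of 0.0610, 88.1% positive on average and 46.7% higher in every profile. TOP-type genes, which in mammals begin with a terminal oligopyrimidine tract and encode the translation apparatus, had 22 members of 38 symbols. Of the 16 valued at all 6 stages, 13 had a higher and 3 a lower 5′ end on average, with a median of 0.0479, beside 88.1% higher and 0.0610 over all genes. rack1, a scaffold on the small ribosomal subunit, was at 0.321, 0.451, 0.288, 0.281, 0.283 and 0.366 in the 5′ end against 0.201, 0.255, 0.199, 0.172, 0.216 and 0.243 in the adjacent region. eef1a1l1, the elongation factor that delivers aminoacyl-tRNA, had a mean difference of 0.100 and eef1g, a subunit of its exchange factor, one of 0.0920, each higher in 6 of 6 profiles. The 3 lower genes were rpl5a, rpl5b and rpsa, a small-subunit protein at -0.0525 that was lower in 5 of 6 profiles. As a group these genes were low in both regions, with medians at 2 h.p.f. of 0.233 in the 5′ end and 0.211 in the adjacent region, where all transcripts averaged 0.271 and 0.243.

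A list of genes for cap binding, scanning and 5′ decay, and of relatives of these genes, had 41 members of 54 symbols. Of the 20 valued at all 6 stages 19 had a higher 5′ end on average (median 0.0666), beside 88.1% of all genes. In 11 it was higher in every profile, beside 46.7% of all genes. Subunit J of eIF3, described above, was not on this list. ybx1, a cold-shock domain RNA-binding protein, had the largest difference, 0.166, with 0.408, 0.535, 0.387, 0.359, 0.498 and 0.524 in the 5′ end against 0.278, 0.302, 0.306, 0.251, 0.288 and 0.288 in the adjacent region. The helicase gene eif4a3, a relative of the cap helicase genes, followed at 0.144 and eif1, which monitors start codon choice, at 0.114. The cap helicase genes eif4a1b and eif4a1a were at 0.107 and 0.0727, and eif4e1c, a cap-binding protein, at 0.0849. The listed gene with a lower 5′ end was ddx3xa, a DEAD-box helicase gene, at -0.00531 with 3 profiles in each direction, while its paralog ddx3xb was at 0.0626 and higher in 6 of 6.

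Maternal regulators had 42 members of 49 symbols, of which 12 were valued at all 6 stages, each with a higher 5′ end on average (median 0.0856, 7 higher in every profile), where 88.1% and 46.7% of all genes did so. ybx1 is on this list as well. At 0 h.p.f. the RPKM of these 12 genes ran from 92.9 (kpna4) to 3310 (h1m), where the median of all members was 57.3. The difference between the regions was larger in abundant transcripts, as given above, and the part of abundance in the values of this list was not tested. ccnb1, the mitotic cyclin B1, was at 0.446, 0.527, 0.406, 0.345, 0.448 and 0.494 in the 5′ end against 0.279, 0.376, 0.318, 0.245, 0.326 and 0.322. Of the maternal transcription factors that open the zygotic genome, nanog had a mean difference of 0.133 and pou5f3 one of 0.0849, both higher in 6 of 6 profiles. slbp, the histone mRNA stem-loop binding protein, was the least different at 0.00542, with 3 profiles in each direction.

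Zygotic patterning genes were members mostly in the late profiles. Of 49 symbols, 1 was a member at 0.4, 1 and 2 h.p.f. (otx1), 13 at the sphere stage and 35 at the shield stage. At 6 h.p.f. 33 had 30 valued nucleotides in both regions and 31 of them had the higher 5′ end, with a median difference of 0.0545 beside 0.0553 for all transcripts, of which 77.6% were higher. bmp7a, a ventralizing BMP ligand, was at 0.573 against 0.317 and krt8, a keratin of the enveloping layer, at 0.539 against 0.297. tbxta, the mesodermal T-box factor Brachyury, was at 0.495 against 0.293 and chrd, the BMP antagonist Chordin, at 0.477 against 0.339. The 2 with the lower 5′ end were the homeobox repressor gene ved, at 0.269 against 0.348, and the Nodal antagonist gene lft1, at 0.273 against 0.307. In morphants at 6 h.p.f. 22 of 26 valued genes of the list (84.6%) had the higher 5′ end, beside 73.7% of all transcripts. There bmp7a was at 0.308 against 0.329.

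From stage to stage the 5′ end moved in the same direction as the adjacent region in each of the first 4 intervals and by a larger amount in 3 of them. The changes were taken over nucleotides valued at both stages, in transcripts with at least 30 of them in each region. Between 0 and 0.4 h.p.f. the 5′ ends of 2343 transcripts were higher by a mean of 0.0802 and the adjacent region by 0.0443, and 89.3% of 5′ ends were higher at 0.4 h.p.f. Between 0.4 and 1 h.p.f., in 2507 transcripts, the mean of the 5′ end was 0.289 at the 4-cell stage and 0.410 at the 1-cell stage, a change of -0.121, and that of the adjacent region was 0.280 and 0.335, a change of -0.0547. This was the largest step of the series, and 3.59% of 5′ ends went against it. Between 1 and 2 h.p.f. the order turned, with -0.0116 for the 5′ end and -0.0315 for the adjacent region in 2774 transcripts. Between 2 and 4 h.p.f. the changes were 0.0685 and 0.0556 in 3370 transcripts, with 91.3% of 5′ ends higher, and between 4 and 6 h.p.f. they were 0.00842 and -0.000237 in 2236 transcripts. With 1 profile per stage these changes could not be tested, and stage and library cannot be told apart.

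In the 1005 genes followed through all 6 stages, the 5′ end was highest at 0.4 h.p.f. in 698 (69.5%) and the adjacent region in 680 (67.7%). The lowest stage differed more between the regions: the 5′ end was lowest at 2 h.p.f. in 561 genes (55.8%) and at 1 h.p.f. in 305 (30.3%), and the adjacent region at 2 h.p.f. in 891 (88.7%) and at 1 h.p.f. in 64 (6.37%). The measured change of a transcript's 5′ end was weakly related to that of its next 200 nt, with r between -0.00792 and 0.213 across transcripts in the 5 intervals, over points that share both libraries. Each change is a difference of single profiles with no measure of error, and the part of measurement noise in the low r was not tested. Within single transcripts the nucleotide pattern of the 5′ end was largely kept, with a median r between adjacent stages of 0.725 to 0.851 in the 5′ end and 0.753 to 0.857 in the adjacent region. The r of the 5′ end includes the decline along it that the stages share, and the part of that decline was not tested.

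Nucleotides that differed by more than 0.2 between 2 profiles were more frequent in the 5′ end than in the adjacent region in every comparison. With windows instead of single nucleotides, the paper reports enrichment of structurally variable regions in 3′ UTRs, and 3′ ends were not compared here. The threshold of 0.2 is the one the study used for a structurally variable nucleotide. Between 0 and 0.4 h.p.f. 34.6% of 179338 nucleotides in the 5′ end passed it and 27.7% in the adjacent region, with 27.9% over the whole of the same transcripts. Between 0.4 and 1 h.p.f. the shares were 36.1% and 26.2% with 26.2% over whole transcripts, and between 1 and 2 h.p.f. 18.8% and 17.2% with 16.5% over whole transcripts. From 2 to 4 h.p.f. they were 28.8% and 24.4% with 23.2% over whole transcripts, and from 4 to 6 h.p.f. 25.6% and 20.8% with 18.9% over whole transcripts. The ratio of the 5′ end to the adjacent region ran between 1.10 and 1.38 in these intervals. The excess between 0 and 0.4 h.p.f. was in gains, 25.5% of nucleotides gaining and 9.09% losing in the 5′ end against 18.3% and 9.37% in the adjacent region. Between 0.4 and 1 h.p.f. it was in losses, 30.8% losing and 5.35% gaining in the 5′ end against 18.6% and 7.61%. Reactivity in the 5′ end was also higher and more spread at each stage, and the part of this in passing a fixed threshold was not tested.

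**Figure D5:**
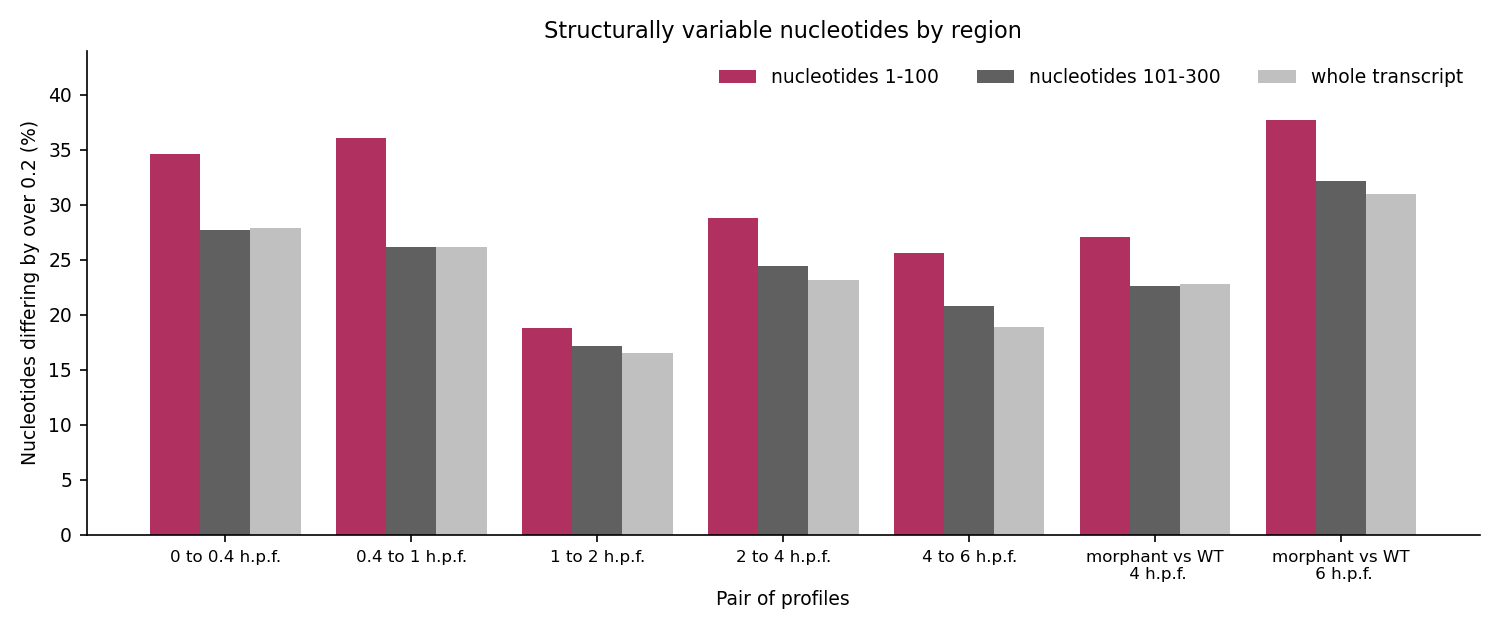
Percentage of nucleotides whose reactivity differed by more than 0.2 between 2 profiles, in nucleotides 1 to 100, the adjacent region and the whole transcript, for the 5 wild-type intervals and the 2 comparisons of morphants with wild type. The bar of the 5′ end is the tallest in each of the 7 groups, by most between 0.4 and 1 h.p.f. (36.1% against 26.2%) and by least between 1 and 2 h.p.f. (18.8% against 17.2%).

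In elavl1a morphants the 5′ end was on average less reactive than in wild-type embryos with the same stage label. At 4 h.p.f. it averaged 0.327 in morphants and 0.342 in wild type over 2222 shared transcripts, a difference of -0.0159 ± 0.0611 (SD over transcripts), while the adjacent region was at 0.301 and 0.302. In 39.5% of these transcripts the 5′ end was higher in morphants. Over all members of each profile at 4 h.p.f., nucleotides 7 to 30 averaged 0.406 in morphants and 0.480 in wild type. Nucleotides 51 to 100 were at 0.318 and 0.309 at that stage, and the adjacent region was at 0.301 and 0.294. These means are over different transcripts in morphants and wild type, and the part of membership was not tested. Over all members at 6 h.p.f., nucleotides 51 to 100 were at 0.289 in morphants and 0.317 in wild type. At 6 h.p.f. the 5′ end averaged 0.305 in morphants and 0.360 in wild type over 1927 transcripts, -0.0554 ± 0.0814, and the adjacent region moved nearly as much, 0.255 and 0.303. The morphant minus wild-type change of the 5′ end, less that of the adjacent region, was therefore -0.0147 at the sphere stage. At the shield stage it was -0.00813. The morphant profiles were shallower in both regions. In the 5′ end 48.8% of nucleotides were valued in morphants and 68.5% in wild type at the sphere stage. At the shield stage these shares were 53.4% and 60.4%. In the adjacent region they were 73.3% and 91.2% at the sphere stage, and 77.0% and 83.8% at the shield stage. The part of depth was not tested. At 4 h.p.f. 27.1% of 5′ end nucleotides differed by more than 0.2 between morphants and wild type, 22.6% in the adjacent region and 22.8% over whole transcripts. At 6 h.p.f. the shares were 37.7%, 32.2% and 31%. Each condition is 1 profile, so the effect of the morpholino and the difference between 2 preparations cannot be told apart. The paper also reports that morphants reached sphere later and that their gastrulation was delayed. A difference in developmental progress can therefore not be told apart either.

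The single genes with the widest differences were picked on those differences and are given as values. Among 1807 genes at 4 h.p.f., mcm6l, a subunit of the replicative helicase, was lowest, at 0.297 in morphants and 0.578 in wild type, with ppp1r8b, a regulator of protein phosphatase 1, at 0.224 and 0.440 and oclna, the tight-junction protein occludin, at 0.336 and 0.515. The highest were ubap2b at 0.551 in morphants and 0.350 in wild type, the transcription factor gene atf1 at 0.459 and 0.271, and the nucleolar protein gene surf6 at 0.415 and 0.237. The adjacent region, which did not enter the choice, differed by -0.0567 to 0.0180 in these 6 genes. Among 1616 genes at 6 h.p.f., the lowest were the splicing factor gene smndc1 (0.233 in morphants and 0.577 in wild type), efs (0.126 and 0.449) and the splicing co-factor gene sona (0.215 and 0.527). The highest were rcc2 (0.821 and 0.430), the transcription elongation factor gene supt6h (0.609 and 0.335) and lmnb1, which encodes lamin B1 (0.603 and 0.347). Their adjacent regions differed by -0.0975, in supt6h, to 0.0674, in smndc1. The 5′ ends of smndc1, efs and sona rested on 53, 51 and 50 nucleotides valued in both conditions, and that of mcm6l at 4 h.p.f. on 50, where 50 were required. The other genes named here had 67 to 89.

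elavl1a itself, the target of the morpholino, had a reactive 5′ end at every stage, at 0.405, 0.552, 0.359, 0.316, 0.462 and 0.476 from 0 to 6 h.p.f. against 0.290, 0.316, 0.30, 0.252, 0.302 and 0.314 in the adjacent region. Its first 20 nt were at 0.607 in morphants and 0.766 in wild type at the sphere stage, with 0.580 and 0.797 at the shield stage. Nucleotides 81 to 100 were at 0.352 in morphants and 0.242 in wild type at the sphere stage, with 0.267 and 0.240 at the shield stage. Over the whole 5′ end the difference was -0.0281 at the sphere stage and -0.0566 at the shield stage. dgcr8, a cofactor of microRNA processing, was a member in 5 wild-type profiles, where its 5′ end was at 0.308, 0.528, 0.322, 0.235 and 0.370 from 0 to 4 h.p.f. against 0.305, 0.336, 0.280, 0.231 and 0.287. In morphants at 4 h.p.f. its 5′ end was at 0.169 against 0.250 in the adjacent region. Over the 74 nucleotides valued in both conditions at 4 h.p.f. it was at 0.169 in morphants and 0.318 in wild type.

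Transcripts that gained and lost RNA between 2 and 6 h.p.f. were compared in their 5′ ends, and the size of the contrast varied between profiles. The transcripts of each profile were divided anew into 5 equal classes by the change of their level in control embryos. The change was log2(RPKM + 1) at 6 minus 2 h.p.f. Averaged over the 6 wild-type profiles, the class medians were -2.72 for the lowest changes and 1.15 for the highest. They were -3.00 and 0.697 at 0 h.p.f. but -1.32 and 3.71 at 6 h.p.f. Classes thus held different transcripts in different profiles, and the part of this in the varying contrast was not tested. The class with the highest changes had a 5′ end at 0.342 and the adjacent region at 0.291, and the class with the lowest 0.327 and 0.288, as means of the 6 wild-type profiles. The difference between the regions was 0.0509 and 0.0395 in these classes and 0.0406, 0.0425 and 0.0471 in those between. The gap of 0.0114 between the outer classes was an average of unequal ones. In the fertilized egg the difference between the regions was 0.0450 in the class with the highest changes and 0.0474 in that with the lowest, and at 2 h.p.f. it was 0.0293 and 0.0270. In the 1-cell embryo it was 0.0903 and 0.0738. At 4 h.p.f. it was 0.0561 and 0.0389, and at 6 h.p.f. 0.0709 and 0.0406, with 5′ ends at 0.367 and 0.333. In morphants at 4 h.p.f. it was 0.0434 and 0.0158. At 6 h.p.f. the classes also differed in valued nucleotides, 79.4 and 68.3 of the first 100, and the part of coverage in the gap was not tested. Each class is 1 value per profile, so the gap within a profile has no error beyond the transcripts it averages.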

How the data were processed

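icSHAPE reactivity was used as deposited. Per the study's methods, reads were trimmed with cutadapt and Trimmomatic, collapsed to remove PCR duplicates and mapped with Bowtie2 to the RefSeq zebrafish transcriptome (Z10), stops of reverse transcription were counted with replicates combined and scaled in windows of 200 nt stepped by 30 nt, and weakly covered transcripts were removed. The deposited reactivity is a fraction between 0 and 1 per nucleotide, with no value where coverage was too low. The authors also gave 1 value per transcript in an unnamed column, which was read as RPKM and used to order transcripts by abundance, and neither its unit nor the library behind it is stated in the sources used here. For RNA-seq the authors deposited read counts and RPKM values per transcript. The counts gave the depth, 61776396 to 104388477 uniquely mapped reads per library, and RPKM the change between stages with a pseudocount of 1. The depth of the icSHAPE profiles is unknown beyond the number of valued nucleotides (148872 to 389513 in the 5′ ends of a profile).

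Means per transcript used at least 30 valued nucleotides in each region and were averaged over transcripts. The 4 measures of reactivity were tested with an exact two-sided sign-flip permutation over the 6 wild-type profiles and adjusted by Benjamini-Hochberg, and the share valued, which the membership rule uses, was left out of the adjustment. The routine was tested on simulated profiles. Python 3.11.15 was used with NumPy 2.4.6. Symbols came from RefSeq (GRCz12tu, names only) and matched 6301 of 6394 members. Genes were named by rule: the 10 highest and 10 lowest mean differences, the 3 highest and 3 lowest differences in each comparison with morphants, the members of each list with the largest differences, and elavl1a and dgcr8. Within the lists, further members were named for their function or direction after their values were seen. Members and lists were chosen with earlier results of these data known. iCLIP data were not used. Sequences, start codons and UTR limits of these transcripts were not analysed here.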

Additional observations from a re-analysis of the deposited data

Results flagged for a closer look

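The share of valued nucleotides at exactly 0 differed between the 2 ages in how morphants compared with wild type. At 4 h.p.f. the 5′ end minus the adjacent region (the 200 nt after nucleotide 100) was -0.699 percentage points in morphants and -0.849 points in wild type, a difference of 0.150 points. At 6 h.p.f. the gap was -2.71 points in morphants and -0.912 points in wild type, a difference of -1.80 points. The opposite signs rest on 1 profile per condition, and the difference between the ages was not tested.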

How the results depend on the processing

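The difference in mean reactivity between the 5′ end and the adjacent region kept its direction and exact permutation p of 0.0312 or less in 14 of 16 alternatives other than leaving out a profile, with values up to 0.0574, and was 0.0549 in members of all 8 profiles. Among the 14, keeping 1 transcript per set with identical values over nucleotides 1 to 300 could not change the result, since no set repeated. Subtracting each transcript's own mean could not either, since it cancels between the regions. Both gave 0.0441. With the 5′ end as nucleotides 31 to 100 the difference was 0.0267, that in the share at 0.5 or more 3.20 points and that in the SD 0.00849, each with an exact permutation p of 0.0625. With nucleotides 51 to 100, chosen after seeing the data, the mean difference was 0.0171. Over all 8 profiles the share of nucleotides at exactly 0 differed by -0.837 points with an exact permutation p of 0.0391, and in transcripts at or above the median RPKM by -0.000353 points. Leaving out each wild-type profile in turn gave 0.0374 to 0.0510 for the mean, -24.3 to -23.0 points for the share valued, -0.810 to -0.439 for zeros, 4.80 to 6.57 for 0.5 or more and 0.0198 to 0.0247 for the SD, and 5 profiles cannot give an exact permutation p under 0.0625. Nucleotides 11 to 20 stood 0.211 above the adjacent region. Chosen after seeing the data, the same in transcripts with at least 90 valued nucleotides was 0.206. In another choice made after seeing the data, the first 10 nt after 30 unvalued interior ones stood 0.0152 above the mean of whole transcripts. That mean is over all members, also those without such stretches. At 4 h.p.f. it was 0.288, and the stretches came down from 0.303 to 0.274, so 0.0152 is not the size of their decline.

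The change of the 5′ end in the 5 wild-type intervals, in order, was 0.104, -0.147, -0.0271, 0.0950 and 0.0108 by the median nucleotide, and 0.0851, -0.125, -0.0131, 0.0768 and 0.00846 in members of all 8 profiles. With the change of the whole transcript subtracted it was 0.0340, -0.0575, 0.0174, 0.0211 and 0.00734, so the interval from 1 to 2 h.p.f. changed sign, by construction because the change of the whole transcript was more negative. The difference of morphants from wild type at 4 and 6 h.p.f. was -0.0117 and -0.0733 by the median nucleotide and -0.0211 and -0.0163 with the whole transcript subtracted. With a threshold of 0.3 the variable share of the 5′ end was 19.8%, 20.9%, 8.64%, 15.5% and 13.2% in the 5 intervals and 14.1% and 23.1% in the comparisons with morphants, above the adjacent region each time. The gap of 0.0114 between the outer classes of RNA change was 0.0115 with the replicate number as a block, although the numbers come with no stated pairing, and 0.0111 to 0.0118 when each library was left out. The alternatives by base and by 5′ UTR or coding sequence were not run, since they need transcript sequences and models. Nucleotides 1 to 6 have no value in any profile, and the first 10 nt have few.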
